A study of Mus musculus with 4 samples.

Results

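The 46 protein-coding genes of the mouse whose symbols begin with Nduf were described in brain endothelial cells of E15 and E18 embryos. They were taken from 20194 genes listed at either stage by symbol and biotype, a rule that uses no values, and all 46 were listed at both stages. Earlier results of these data were known when this set was chosen. By known role they comprise 7 core subunits, 29 accessory subunits and 8 assembly factors of respiratory complex I. Ndufa4 and its paralogue Ndufa4l2 were kept apart, because Ndufa4 is now counted with cytochrome c oxidase.

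Complex I takes electrons from NADH, passes them through a flavin and a chain of iron-sulphur clusters to ubiquinone, and pumps protons across the inner mitochondrial membrane. Its catalytic core is divided between the nuclear genome, which encodes the hydrophilic subunits that bind NADH and ubiquinone, and the mitochondrial genome, which encodes the hydrophobic pumping subunits (mt-Nd genes). Accessory subunits surround the core, and assembly factors help to build and modify the complex without being part of the finished enzyme. Endothelial cells are known to make much of their ATP by glycolysis and also to respire.

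At each stage C57BL/6 wild-type embryos were compared with UCP2f/f;Tie2-cre embryos of that strain. In the latter, Cre is driven by the Tie2 promoter, which is active in endothelial cells and also in most blood cells, and removes floxed sequence from Ucp2, the gene of a carrier of the inner mitochondrial membrane. Total RNA was extracted with Trizol, and the way the cells were isolated was not given in the sources used here. There were 4 groups of 1 library each: wild type E15, knockout E15, wild type E18 and knockout E18, with 15542930, 16328300, 19075407 and 21992660 reads in genes. The study's design text mentions triplicates, but no replicate libraries were analysed here. Each ratio therefore compares 2 libraries and has no replicate check, no SD and no p-value. The 95% intervals given beside the ratios are exact (Clopper-Pearson) and cover counting error only. Ratios are log2 values of CPM, the read count scaled to a common library total, with a pseudocount of 1 CPM, while the intervals carry no pseudocount and can be wider on one side for genes with few reads.

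Pairs of read counts are given as wild type then knockout for genotype, and as E15 then E18 for stage. The targeted gene Ucp2 had 4285 and 2666 reads at E15 (log2 -0.75) and 6696 and 3296 at E18 (log2 -1.22), so it was lower in each knockout library and still present in it. All 9 endothelial markers were listed, with summed levels of 14839 to 17461 CPM. Single ones differed more, and Flt1 was at 1328, 2939, 1024 and 1317 CPM and Cdh5 at 194, 192, 312 and 387 CPM in the order wild type E15, knockout E15, wild type E18, knockout E18. The sums of most other marker lists, given in the same order, differed more between libraries. Those of mural cells summed to 5936, 3865, 7863 and 9709 CPM, of microglia to 485, 200, 23.9 and 38.6 CPM, of neurons to 108, 55.1, 48.8 and 46.2 CPM, and of fibroblasts to 303, 147, 209 and 214 CPM. Every list was present above 0 in every library, although single markers were at 0 reads. These were Tmem119 (microglia) and Dcn (fibroblasts) in the wild-type E18 library, Snap25 (neurons) in the knockout E18 library and Pdgfra (fibroblasts) in both knockout libraries. Lum, Gfap and Aqp4 were listed at E18 alone and Sox2 at E15 alone. Erythroid markers summed to 397, 503, 894 and 695 CPM and those of astrocytes and radial glia to 19.8, 17.9, 77.2 and 49.0 CPM. The part of these cells in the ratios below was not tested, and in bulk RNA fewer cells of a type cannot be told apart from less RNA per cell. The Y-linked gene Ddx3y had 5826 and 0 reads at E18, and Xist, transcribed from the inactive X chromosome, was at 164, 129, 0 and 24.9 CPM in the order given. Sex therefore cannot be told apart from genotype at E18, or from stage in the wild type, for any member. Ndufa1 and Ndufb11 are X-linked.

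Short words in the DNA at the start of these genes are shown first, because nuclear factors known to bind such words (NRF1, the ETS factor GABP and YY1) are textbook regulators of nuclear mitochondrial genes. The RefSeq promoter windows (GRCm38.p6, 250 bases before to 50 after the start) matched 40 of the 46 members. Ndufa2, Ndufb9, Ndufa4l2, Ndufaf6 and Ndufs1 were among those not matched. Both strands were searched for 1 word per factor, GCGCATGC for NRF1, CCGGAAGT for GABP and AAGATGGC for YY1. The YY1 word was found in 8 of 40 members (20%) and in 3.19% of 27025 genes with a window of the same length. Those genes were not limited to protein-coding ones, as the members are, so this share and those below are not like for like. All 8 YY1 words of members were on the strand of the gene and downstream of the start. Each is given 5′ to 3′ on that strand with the word in capitals, and the coordinates are those of the bases printed.

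Ndufaf8, chr11:120098934-120098961: ggcagggcccAAGATGGCggcgccctcg
Ndufa3, chr7:3617385-3617412: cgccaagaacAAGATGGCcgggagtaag
Ndufc1, chr3:51408916-51408943: cctgcggaacAAGATGGCgccgtccgta
Ndufs7, chr10:80249463-80249490: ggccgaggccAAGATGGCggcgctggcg
Ndufa9, chr6:126849098-126849125: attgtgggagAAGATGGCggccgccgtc
Ndufs6, chr13:73328433-73328459: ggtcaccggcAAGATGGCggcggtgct
Ndufs4, chr13:114388045-114388069: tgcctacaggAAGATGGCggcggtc
Ndufb8, chr19:44555393-44555414: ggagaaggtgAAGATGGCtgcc

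The genes of the windows for Ndufc1, Ndufa9, Ndufs6, Ndufs4 and Ndufb8 lie on the minus strand and the other 3 on the plus strand. Counted from the first transcribed base as 1, the word began at base 11 in Ndufaf8 and at base 39 in Ndufb8, with the other 6 between. The word contains ATG. In 7 of the 8 genes this ATG is a start codon annotated in GENCODE M21, the exception being Ndufaf8, so in these genes the word covers the first codon of the protein.

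The NRF1 word was found in 5 of 40 members (12.5%) and in 3.05% of all genes with a window. It reads GCGCATGC on one strand and GCATGCGC on the other, and where both stand in the same bases they overlap. The word lay on either side of the start, from base -113 to base 17 relative to it, and Ndufaf4 held it in 2 places. These windows show the word as it reads on the strand of the gene.

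Ndufa6, chr15:82354357-82354384: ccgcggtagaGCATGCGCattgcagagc
Ndufa11, chr17:56717692-56717719: cctgcactgcGCGCATGCgcgcacgcct
Ndufa8, chr2:36049329-36049356: cgctggagacGCATGCGCagatggtacc
Ndufaf4 upstream, chr4:24897960-24897987: ccagatgtctGCGCATGCgcctgtgcgg
Ndufaf4 at the start, chr4:24898074-24898101: cccctggtgtGCGCATGCtccgtgcgta
Ndufaf5, chr2:140170652-140170679: agtcccgttgGCGCATGCgcctaataga

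The GABP word was found in 1 member, the core subunit gene Ndufs3, where it began at base 1 and read on the opposite strand to the gene. That is 2.5% of members and compares with 4.31% of all genes.

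Ndufs3, chr2:90904704-90904731: gcacatttccACTTCCGGtccgtgccct

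Altogether 14 of 40 members (35%) held at least 1 of the 3 words, and no member held more than 1 kind. The share was 9.91% over all genes with a window, which were not limited to protein-coding ones. The member windows had a median GC content of 59.3% against 52.7% over all windows. A match is a description of letters and not of bound factors, and the absence of a word says only that these letters are not in the window. The transcripts of the 3 factors were all detected. Nrf1, Gabpa and Yy1 had 950, 1695 and 379 reads in the wild-type E15 library, and Yy1 was the one whose level differed most, at 24.4, 23.3, 10.6 and 16.7 CPM.

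The Nduf genes were read at very different levels in these endothelial libraries, from 1.86 to 227 CPM per kb. Levels are compared between genes as CPM per kb of transcript, averaged over the 4 libraries. Ndufa4l2 was highest at 227, followed by the NADH-binding flavoprotein subunit Ndufv1 at 137, the accessory subunit Ndufa9 at 125 and the accessory subunit Ndufv3 at 112. The lowest were the accessory subunits Ndufa1 at 1.86, Ndufb6 at 2.07 and Ndufb2 at 2.72, with the assembly factor Ndufaf2 between the last pair. The place of Ndufb2 depends on the transcript length used for it, 2413 bases. Its mean of 6.57 CPM was above the 4.65 CPM of Ndufs6, which ranked higher per kb. The median level was 57.2 for core subunits, 17.2 for accessory subunits and 7.91 for assembly factors.

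**Figure D1:**
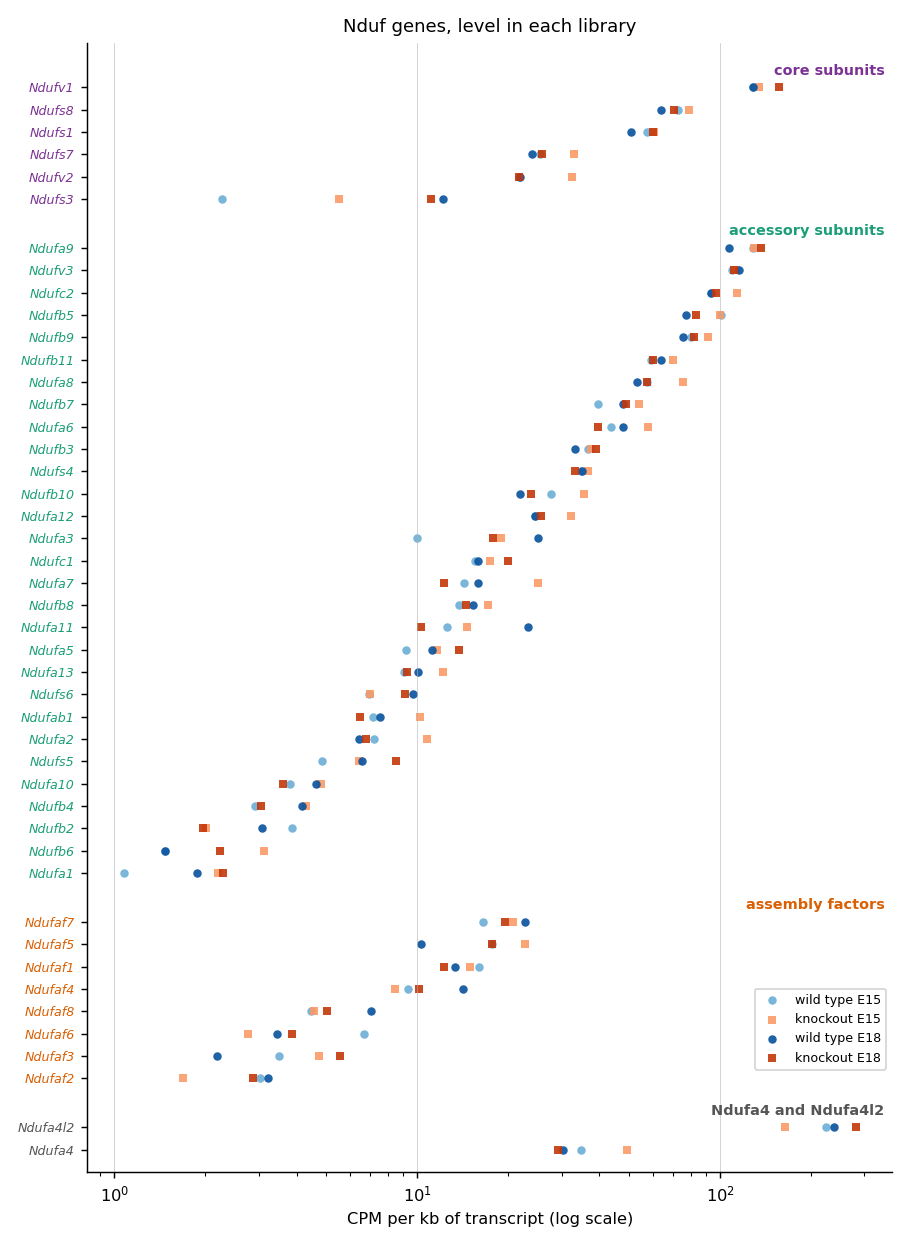
CPM per kb of transcript of 45 of the 46 Nduf genes (log scale) in the 4 libraries, 1 point per library, ordered within each role by the mean. Most genes have 4 points close together, whereas Ndufs3 runs from 2.28 in the wild-type E15 library to 12.1 in the wild-type E18 library.

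Among the core subunits the order of those named here was Ndufv1, Ndufs8 (71.5 CPM per kb), Ndufs1 (57.2), Ndufs7 (27.1), Ndufv2 (24.5) and Ndufs3 (7.76). Ndufv1 carries the flavin that receives electrons from NADH, and Ndufv2, Ndufs1, Ndufs7 and Ndufs8 hold iron-sulphur clusters on the way to ubiquinone. The range of Ndufv1 over the libraries, 128 to 157, lay above that of every other core subunit named here. Ndufs7 and Ndufv2 overlapped across libraries, with ranges of 24.0 to 33.1 and 21.7 to 32.5.

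Of the accessory subunits, Ndufa9, Ndufv3 and Ndufc2 were highest, and their levels differed little between libraries. Ndufc2 stood at 93.2, 113.9, 93.6 and 97.0 CPM per kb in the order wild type E15, knockout E15, wild type E18, knockout E18. The ratio of the highest to the lowest library was 1.06 for Ndufv3 and 1.10 for Ndufs4. It was 5.33 for Ndufs3, 2.55 for the assembly factor Ndufaf3 and 2.52 for the accessory subunit Ndufa3. Of the assembly factors, Ndufaf7, a protein arginine methyltransferase, was highest at 19.8, then Ndufaf5, which hydroxylates an arginine of Ndufs7, at 17.1, and Ndufaf1 at 14.1.

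The summed level of all 46 genes was nearly equal in the libraries, at 1801, 1904, 1773 and 1926 CPM. The core subunits summed to 640, 673, 605 and 696 CPM, the accessory subunits to 805, 917, 786 and 819, and the assembly factors to 131, 139, 147 and 136. The core sum was highest in the knockout E18 library, the accessory sum in the knockout E15 library and the assembly sum in the wild-type E18 library. Accessory subunits at E15 were higher in the knockout by 0.19 (interval 0.15 to 0.22) on the log2 scale of summed reads, and core subunits by 0.07 (0.03 to 0.11). At E18 the order of these roles was the other way, with core subunits at 0.20 (0.17 to 0.24) and accessory subunits at 0.06 (0.03 to 0.09). Genes with many reads weigh most in these sums. Of the 14992 and 18010 accessory reads at E18, wild type then knockout, Ndufa9 alone had 2736 and 4042. The median of the accessory ratios at E18 was -0.05, with 13 of 27 above 0. The difference between roles was not tested.

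At E15 most Nduf genes were somewhat higher in the knockout library than in the wild type, and few differed much. The median log2 ratio was 0.29 over the 43 of 46 members that passed the filter of 1 CPM in a compared library and 50 reads over both, beside -0.01 over all 12633 genes tested. Of these members 36 (83.7%) lay above 0, where 49.4% of all genes tested did. The counting interval lay wholly above 0 for 22 members, against 28.9% of all genes tested, and wholly below 0 for 4, against 30.5%. Past 2-fold, where 6.87% of all genes tested stood, was 1 member. Ndufa1, with 7 and 15 reads, Ndufb6, with 13 and 29, and Ndufaf2, with 29 and 17, did not pass the filter and are not in these counts.

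The E15 ratios were divided by role. Of 27 accessory subunits 25 were above 0, with a median of 0.30. Of 7 core subunits 6 were above 0, with a median of 0.13, and of 7 assembly factors 4 were, with a median of 0.02. The median also differed with depth. Among the 22 members with at least 740 reads over both libraries the median was 0.15 and 18 were above 0, and among the 21 with fewer reads it was 0.32 and again 18 were above 0.

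Nduf transcripts are short, with a median length of 866 bases against 2264 over all genes, and short transcripts as a class were higher in this knockout library. The shortest length decile (10% of all genes tested), which held 25 of the members, had a median log2 ratio of 0.10 with 61.3% above 0. With each ratio set against the median of its length decile, the median over the members was 0.19 and 31 of 43 were above 0. For accessory subunits these values were 0.22 and 21 of 27. They were 0.10 and 6 of 7 for core subunits, and -0.08 and 3 of 7 for assembly factors. At E18 the shortest length decile stood at 0.03. The next shortest, with 8 members, stood at 0.09 with 60.2% above 0, and the longest at -0.16 with 35.3% above 0.

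**Figure D2:**
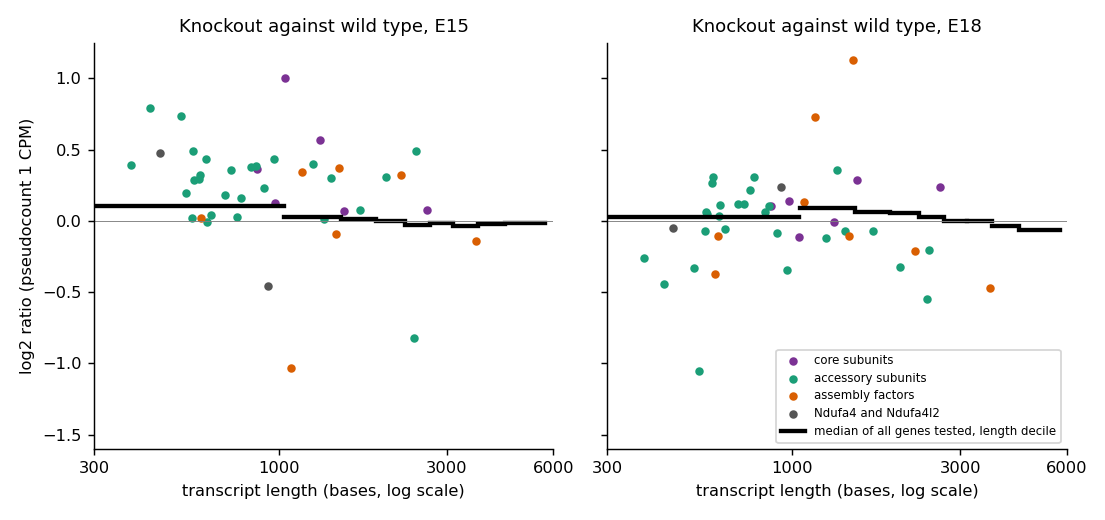
Genotype log2 ratio against transcript length (bases, log scale) at E15 and E18, with 1 point for each plotted Nduf gene that passed the filter and black lines for the median of all genes tested in each length decile but the longest. At E15 the black line is highest, at 0.10, for the shortest genes, and most members lie above it.

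Among core subunits at E15, Ndufs3, a structural subunit of the ubiquinone module, had the highest ratio of all members. It had 37 and 94 reads (log2 1.00, interval 0.71 to 1.86), just under the 2-fold line, and 242 and 256 reads at E18. The E15 wild-type library was thus low for this gene, and both E18 libraries were high. Ndufs3 (chromosome 2, 90894634 to 90904827, minus strand) shares 39.7% of its 50-base words with other annotated transcripts, among them the processed pseudogene Gm12251 on chromosome 11, so its counts are uncertain. Gm12251 had 217, 230, 262 and 280 reads in the order wild type E15, knockout E15, wild type E18, knockout E18. With the reads of both genes summed, a choice made after the values were seen, the E15 ratio was 0.27 instead of 1.00.

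Ndufv2, which carries an iron-sulphur cluster of the NADH module, had 443 and 696 reads at E15 (log2 0.56, interval 0.41 to 0.76). It had 549 and 628 reads at E18 (log2 -0.01). On the CPM scale the knockout E15 library stood alone for Ndufv2, at 42.6 against 28.5 to 28.8 in the other 3. Ndufs7 had 344 and 470 reads at E15 (log2 0.36, interval 0.18 to 0.58) and was likewise highest in that library. Ndufs8 was at 0.13, and Ndufs1 and Ndufv1 were both at 0.07.

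Among accessory subunits at E15, Ndufa3 had 67 and 134 reads (log2 0.79, interval 0.50 to 1.37), Ndufa7 117 and 216 reads (log2 0.74, interval 0.48 to 1.15) and Ndufa2 64 and 101 reads (log2 0.49, interval 0.12 to 1.06). These were the 3 highest accessory ratios among genes past the filter, and all 3 rest on few reads. Accessory subunits with more reads were also above 0. Ndufa8 had 770 and 1061 reads (log2 0.38, interval 0.26 to 0.53), and Ndufc2 had 835 and 1072 (log2 0.28, interval 0.16 to 0.42). Ndufab1, the mitochondrial acyl carrier protein, had 272 and 407 reads (log2 0.49, interval 0.29 to 0.74). The abundant Ndufa9 was level, with 2670 and 2835 reads (log2 0.02, interval -0.06 to 0.09).

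At E15 few members had lower levels in the knockout library. Ndufaf6, an early assembly factor, had 112 and 49 reads (log2 -1.04, interval -1.78 to -0.77), and it was the 1 member past 2-fold at this stage. Its levels were 7.21, 3.00, 3.72 and 4.18 CPM, so that the wild-type E15 library was the one that stood apart. Ndufb2, an accessory subunit of the membrane arm, had 145 and 79 reads at E15 (log2 -0.82, interval -1.36 to -0.54) and 141 and 104 at E18 (log2 -0.55, interval -1.02 to -0.27). It was the only member with its interval below 0 in both genotype comparisons. Ndufb2 shares 7.94% of its exonic bases with Braf and Gm16272 on the opposite strand and Gm42420 on the same strand. Braf had 1058, 1337, 1075 and 876 reads in the order wild type E15, knockout E15, wild type E18, knockout E18. The part of these genes in the ratios of Ndufb2 was not tested. Ndufaf4, with 528 and 502 reads, was at -0.14, and Ndufaf1, with 360 and 354 reads, at -0.09 (interval -0.31 to 0.12).

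Ndufa4l2, known as a target of hypoxia signalling and as a transcript of mural cells, had 3259 and 2491 reads at E15 (log2 -0.46, interval -0.53 to -0.38) and 4235 and 5771 reads at E18 (log2 0.24, interval 0.18 to 0.30). Its level was 210, 153, 222 and 262 CPM in the order wild type E15, knockout E15, wild type E18, knockout E18. The 6 mural markers summed to 5936, 3865, 7863 and 9709 CPM, the same order of libraries, and the pericyte gene Rgs5 alone had 5128, 3401, 6910 and 8764 CPM. Their part in the ratios of Ndufa4l2 was not tested. Without Ndufa4l2 the other 45 genes summed to 1592, 1751, 1551 and 1664 CPM. Ndufa4 ran differently, with 248 and 369 reads at E15 (log2 0.48, interval 0.27 to 0.74) and 266 and 295 at E18 (log2 -0.05).

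**Figure D3:**
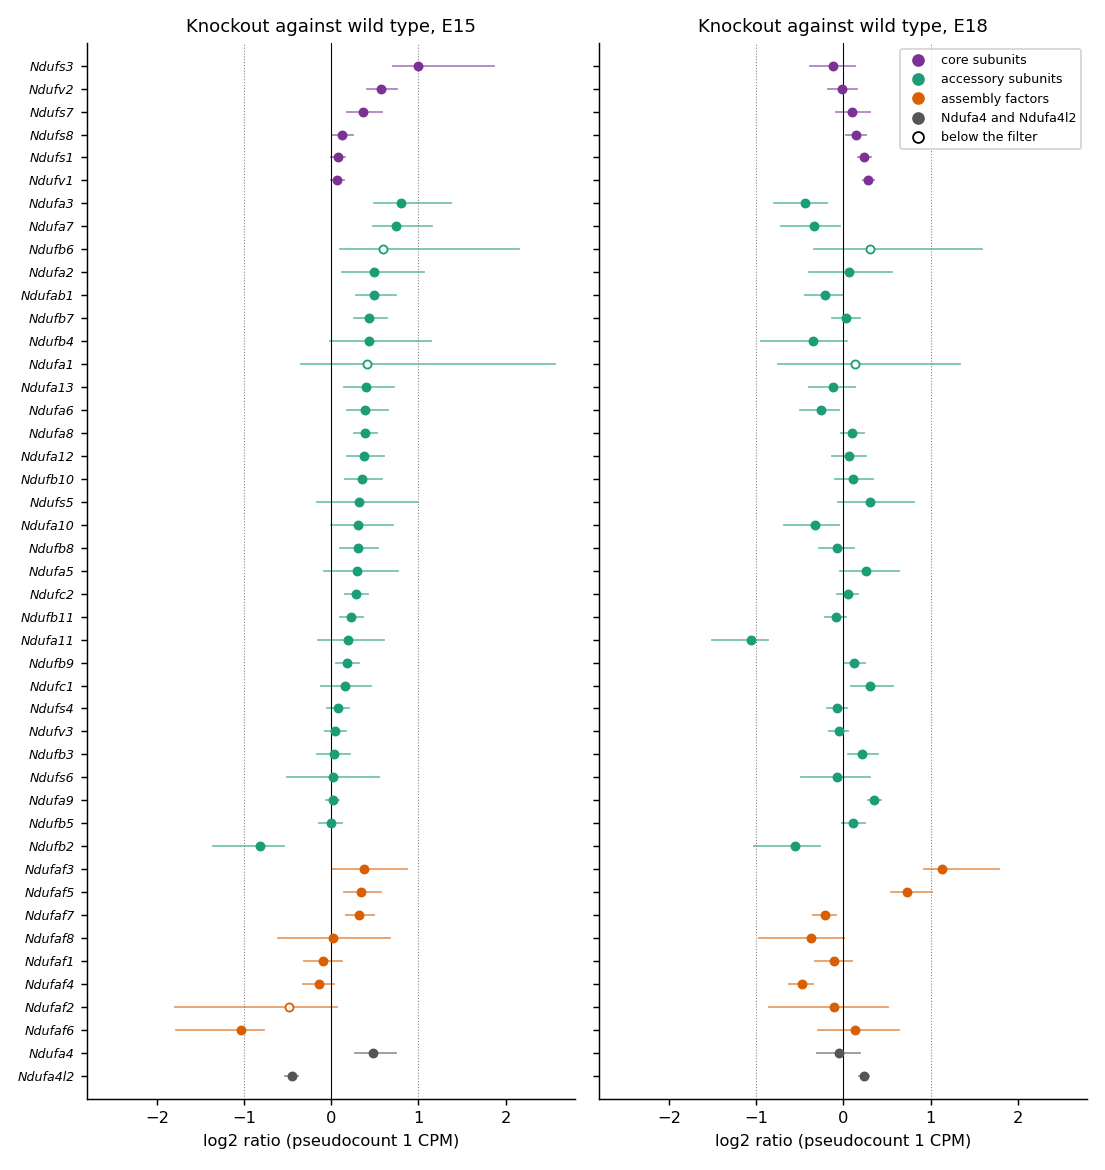
Log2 ratio of knockout to wild type for 45 of the 46 Nduf genes at E15 and E18 with its 95% counting interval. Genes are coloured by role and ordered within each role by the E15 ratio. Dotted lines mark 2-fold and open points mark genes below the filter. At E15 most points lie to the right of 0, and at E18 they lie on both sides.

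At E18 the median ratio of the Nduf genes was close to that of all genes. The median log2 ratio was 0.01 over 44 members, beside 0.00 over all 12349 genes tested, and 22 members (50%) lay above 0, where 50.3% of all genes did. The interval lay above 0 for 11 members, against 32.5% of all genes tested, and below 0 for 8, against 31.9%. Past 2-fold stood 2 members, against 6.8% of all genes. These shares are at or below those of all genes, so they are no result about the members. Ndufa1, with 15 and 21 reads, and Ndufb6, with 16 and 28, did not pass the filter.

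Core subunits at E18 had a median of 0.14, with 5 of 7 above 0, and a median of 0.09 with ratios centred by length. Ndufv1 had 3738 and 5265 reads (log2 0.29, interval 0.23 to 0.35), and Ndufs1 had 2553 and 3475 (log2 0.24, interval 0.17 to 0.31). Both are core genes with many reads. Ndufs8 was at 0.14 (1195 and 1523 reads), Ndufs7 at 0.10 (398 and 495 reads), Ndufv2 at -0.01 and Ndufs3 at -0.11. The intervals of Ndufv1, Ndufs1 and Ndufs8 lay above 0, and those of Ndufs7, Ndufv2 and Ndufs3 held 0.

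Accessory subunits at E18 had a median of -0.05, with 13 of 27 above 0. Ndufa9 was the highest of them, with 2736 and 4042 reads (log2 0.36, interval 0.29 to 0.43). Ndufc1 had 237 and 343 reads (log2 0.31), and Ndufs5 had 75 and 112 (log2 0.30). Ndufa11, which lies in the membrane arm of the complex, had 242 and 123 reads (log2 -1.05, interval -1.51 to -0.86), and at E15 it had 106 and 130 (log2 0.20). The wild-type E18 library was the high one for Ndufa11, at 12.7 CPM against 5.59 to 7.96 in the other 3. Ndufa11 overlaps Vmac on the opposite strand over 6.41% of its exonic bases, and Vmac, with 508, 507, 1198 and 969 reads, also had its highest level in that library. The part of Vmac in the ratio was not tested. Ndufa3 had 207 and 170 reads (log2 -0.44, interval -0.79 to -0.19).

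Assembly factors at E18 had the widest spread of the roles, from -0.47 to 1.13, with a median of -0.11. Ndufaf3, which acts early together with Ndufaf4, had 62 and 182 reads (log2 1.13, interval 0.93 to 1.79). Its partner Ndufaf4 had 985 and 812 reads (log2 -0.47, interval -0.62 to -0.35). Ndufaf5 had 229 and 452 reads (log2 0.73, interval 0.54 to 1.01), and Ndufaf8, known as its partner, had 81 and 67 (log2 -0.37, interval -0.97 to 0.01). In each pair the ratios had opposite signs, with 0 inside the interval of Ndufaf8. For Ndufaf3 and Ndufaf5 the wild-type E18 library was the lowest of the 4. Ndufaf3 overlaps Impdh2 on the opposite strand over 2.64% of its exonic bases, and Impdh2 had 1569, 1207, 1156 and 1489 reads.

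The genotype ratios at E15 and E18 come from separate libraries. Over the 43 genes that passed at both stages Pearson's r was -0.02 and Spearman's rho -0.21, given as a description across genes of the same libraries and with no p. Both ratios were above 0 for 18 members and both below for 3, while 18 were above 0 at E15 alone and 4 at E18 alone. The intervals were above 0 at both stages for 4 members and below at both for 1, Ndufb2. They lay on opposite sides of 0 for 6 members, among which Ndufa3, Ndufa6, Ndufa7 and Ndufaf7 were higher in the knockout at E15 and lower at E18, and Ndufa4l2 the reverse. At E15 and E18 singly, the interval lay above 0 for 28.9% and 32.5% of all genes tested, and below 0 for 30.5% and 31.9%. The share of all genes in the paired classes was not computed, so these counts cannot be read as a result about the members.

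**Figure D4:**
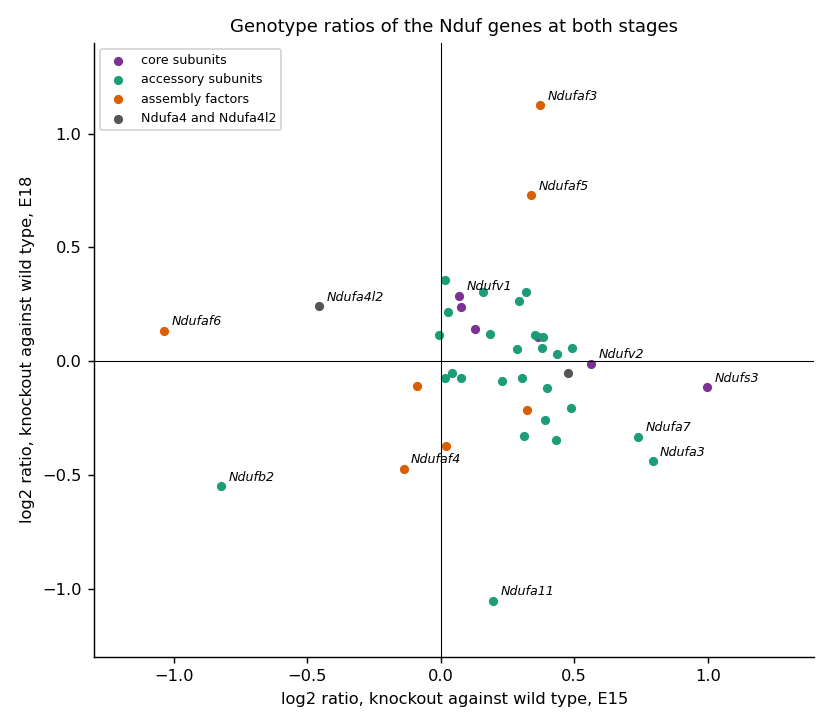
Genotype log2 ratio at E18 against that at E15 for the plotted Nduf genes that passed the filter at both stages, coloured by role, with the genes farthest from 0 and a few further members named. Both ratios are above 0 for 18 genes, and 18 more lie below the horizontal line and right of the vertical one.

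Seen across all 4 libraries, the knockout E15 library held the highest level of 23 of 45 members (51.1%), where it did so for 30.8% of 13844 genes. It was the highest for 17 of 28 accessory subunits and the lowest for none of them. The wild-type E15 library was the lowest for 18 of 45 members (40%), against 17.6% of all genes. The E15 genotype comparison and the stage comparisons share these 2 libraries, so their values are not independent of each other.

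Between the stages, all genes had a median below 0, and ratios are read relative to it. In the wild-type libraries the members' median was 0.02 over 44 members, beside -0.11 over all 12515 genes tested. Of the members 26 (59.1%) were above 0, against 39.1% of all genes. With TMM scaling, which moves the stage medians of all genes to near 0, 30 members and 50.1% of all genes were above 0. The interval was above 0 for 9, against 24.1% of all genes, and below 0 for 10, against 43.4%. Past 2-fold stood 2 members, against 10.7% of all genes. Ndufs3 had 37 reads at E15 and 242 at E18 (log2 2.02, interval 1.91 to 2.95), and 0.66 with the reads of Gm12251 added. Ndufa3 had 67 and 207 reads (log2 1.16, interval 0.93 to 1.75), and Ndufa11 was next at 0.81. The 3 lowest were the assembly factors Ndufaf6 at -0.80, Ndufaf5 at -0.74 and Ndufaf3 at -0.55. Ndufa1 and Ndufb6 did not pass the filter in this comparison.

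In the knockout libraries the members' median from E15 to E18 was -0.15 over 45 members, beside -0.10 over all 12465 genes tested. Above 0 were 15 members (33.3%), against 42.1% of all genes. With TMM scaling the members' median was -0.04 and 20 were above 0, against 50.8% of all genes. The interval was above 0 for 6, against 29% of all genes, and below 0 for 22, against 43.6%. No member was past 2-fold, against 15.3% of all genes. Accessory subunits had a median of -0.23, and 16 of 28 had an interval below 0. The shortest length decile of all genes, which held 27 members, had a median of -0.17 with 33.4% above 0. With ratios centred by length the accessory median was -0.08, the median over the members -0.02, and 22 of 45 members were above 0. The highest were Ndufs3 with 94 and 256 reads (log2 0.90, and 0.28 with the reads of Gm12251 added), Ndufa4l2 with 2491 and 5771 (log2 0.78) and Ndufaf2 at 0.44. The lowest were Ndufa7 with 216 and 142 reads (log2 -0.93, interval -1.35 to -0.72), Ndufa4 at -0.71 and Ndufab1 at -0.62. The accessory sum in the knockout thus went from 917 to 819 CPM between the stages, and in the wild type from 805 to 786. Only Ndufa1 failed the filter here.

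A single model of the 4 libraries, with a term for stage and one for genotype, asked which genes differed by genotype alike at both stages. It left 1 residual degree of freedom, so it takes a genotype difference particular to one stage as noise. By edgeR's quasi-likelihood test with Benjamini-Hochberg adjustment, 0 of 45 members were called for genotype, where 3 of 13416 genes (0.0224%) were, and 0 members had an unadjusted p under 0.05, against 5.12% of genes. The members' genotype log2 estimates were above 0 in 34 of 45, with a median of 0.15 beside -0.02 over all genes, and the smallest adjusted p was 0.993. For stage, 0 of 45 members were called, against 1.34% of genes. At an unadjusted p under 0.05 stood 3 members, against 16.7% of genes, so this count is no result about them. They were Ndufs3, Ndufa4l2 and Ndufaf4, with E18 against E15 log2 estimates of 1.81, 0.55 and 0.55 and edgeR adjusted p of 0.124, 0.200 and 0.245. DESeq2's Wald test called 0 members for either term and had 0 members for genotype and 2 for stage at an unadjusted p under 0.05, against 4.5% and 14.8% of genes.

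The core subunits encoded in the mitochondrial genome were lower in the knockout than in the wild-type library at each stage. Of the 7 mt-Nd genes, mt-Nd4l was not listed and mt-Nd3 had 9 and 2 reads at E15 alone. The ratios of the other 5 were below 0 in all 4 comparisons, with medians of -0.36 and -0.20 for genotype at E15 and E18 and -0.77 and -0.53 for stage in wild type and knockout. Of all genes tested, 49.4% and 50.3% lay above 0 for genotype, and 39.1% and 42.1% for stage, in the same order. For stage in the knockout mt-Nd6 was at -0.09 (interval -0.24 to 0.05), beside a median of -0.10 over all genes. The listed mt-Nd genes summed to 2962, 2290, 1786 and 1547 CPM. mt-Nd1, with the most reads of them, had 27957, 22840, 21235 and 21264, so that the wild-type E15 library was highest. The nuclear core subunits had 640, 673, 605 and 696 CPM in the same libraries.

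Of 12 assembly factors of complex I whose symbols do not begin with Nduf, 11 were listed. Their genotype medians were 0.02 at both stages, with 0 past 2-fold, against 6.87% and 6.8% of all genes tested. Ecsit, which works with Ndufaf1, had 343 and 276 reads at E15 (log2 -0.37, interval -0.62 to -0.15) and 332 and 514 at E18 (log2 0.41, interval 0.22 to 0.63). Tmem186 had 249 and 334 reads at E15 (log2 0.33) and 358 and 271 at E18 (log2 -0.57). All 9 regulators of mitochondrial biogenesis were listed and 8 passed the filter, Ppargc1a (22, 21, 14 and 10 reads) being the exception. Of the 8, 7 lay below 0 at E15 (median -0.10) and 5 at E18 (median -0.07), where 49.4% and 50.3% of all genes tested lay above 0. Among those below 0, the intervals of Nrf1, Gabpb1 and Yy1 held 0 at E15, and those of Gabpb1 and Esrra at E18. The coactivator Ppargc1b had 174 and 64 reads at E15 (log2 -1.31, interval -1.95 to -1.09) and 223 and 103 at E18 (log2 -1.16, interval -1.67 to -0.98). It was the 1 regulator of the 8 past 2-fold for genotype at each stage, where 6.87% and 6.8% of all genes tested stood.

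The genotype ratios of members with and without a promoter word overlapped. At E15 the 8 with the YY1 word had a median of 0.12 and the 29 without it 0.32, with ranges of 0.02 to 0.79 and -0.82 to 1.00 that overlap. The 5 with the NRF1 word had a median of 0.34, against 0.31 for the 32 without it. At E18 the medians were -0.07 with the YY1 word and -0.05 without it, and -0.26 with the NRF1 word (range -1.05 to 0.73) and -0.05 without it (range -0.55 to 1.13).

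Several members have counts that another gene could share. Exonic bases overlap another annotated gene in 19 members, and whether the counting used strand was not stated in the labels. For Ndufaf2, 65.7% of exonic bases overlap B230220B15Rik on the opposite strand. Over 20% of 50-base words occur in another gene's transcripts for 7 members, which are Ndufs3, Ndufb4 (37.0%), Ndufb6 (31.6%), Ndufa13 (28.5%), Ndufa12 (26.2%), Ndufb9 (23.4%) and Ndufs5 (22.9%). Their levels and ratios are uncertain for this reason. No such word was shared by 24 members, among them Ndufv1, Ndufv2, Ndufs7, Ndufs8 and Ndufaf3.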

How the data were processed

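Libraries of total RNA from brain endothelial cells were sequenced by Illumina, per the labels and the series' design text. The authors deposited, per the file headers, raw read counts per Ensembl gene for the knockout and the wild-type library of each stage, and these counts were used unchanged. Named in the submitters' processing notes, without roles, are HTSeq 0.6.0, TopHat2 2.0.12, Bowtie2 2.2.3 and the build mm9. The deposited positions nevertheless equal GENCODE M21 (GRCm38) gene models for 18125 of 20143 identifiers and for 34 of the 46 members, so coordinates are read as GRCm38. Column names matched their libraries in every case.

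Counts were divided by library totals over all listed genes. The log2 ratio carried a pseudocount of 1 CPM, which understates differences of low genes, and 2-fold was the line for a call. A gene passed the filter if either compared library reached 1 CPM and both together held 50 reads. Interval bounds come from the exact binomial share of reads. Depth per library was 15542930 to 21992660 reads in genes. Transcript length is the median over a gene's protein-coding GENCODE M21 basic transcripts. Promoter windows are from RefSeq (GRCm38.p6). The additive test was edgeR 4.0.16 (quasi-likelihood, TMM) on genes that reached 1 CPM in 2 or more libraries, with DESeq2 1.42.0 as an alternative. Procedures were tested on simulated data. For the additive test these had less spread between libraries and larger genotype changes than the members had. Its power to find changes of the size seen here was therefore not tested.

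One core subunit is counted in all summaries but not reported individually here. Named are the other core subunits, the 5 highest and 5 lowest genotype ratios (without that gene) at each stage, the 3 highest and 3 lowest in each stage comparison, the 3 highest levels in each role, and every member past 2-fold or below the filter. Further members are named as examples chosen after their values were seen, and so are the other mt-Nd, assembly and regulator genes. The members, lists and roles were chosen with earlier results of these data known. Alternatives were other scalings, pseudocounts and filters, and ratios centred by length.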

Additional observations from a re-analysis of the deposited data

Results flagged for a closer look

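For the genes named here the genotype ratio had a counting interval above 0 at one stage and below 0 at the other, which is what marked them. The difference between the stages was not tested, since each stage has 1 library per genotype. The share of all genes that would be marked in this way was not computed. As E18 minus E15 on the log2 scale, it was -1.23 for Ndufa3, -1.07 for Ndufa7, -0.65 for Ndufa6 and -0.54 for Ndufaf7, which were higher in the knockout at E15 and lower at E18. It was 0.70 for Ndufa4l2, which ran the other way.

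Ndufab1-ps, a processed pseudogene of Ndufab1 outside the 46 genes, had 61 reads over the 4 libraries (13, 18, 15 and 15). It was marked because reads were listed for a gene that the comparisons do not use, above the 3 reads that a count of 0 allows.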

How the results depend on the processing

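With a pseudocount of 0.5 CPM, 2 of 43 members were past 2-fold for genotype at E15, against 1051 of 12633 genes tested. With 5 CPM 0 were at E15, against 238 of 12633, and 0 of 44 at E18, against 124 of 12349. For stage in the wild type 1 was with 5 CPM, against 429 of 12515. With TMM or DESeq2 size factors 1 of 45 members was past 2-fold for stage in the knockout, against 1844 and 1847 of 12465 genes tested. These scalings raise the stage median of all genes by 0.11 to 0.12, and the members' stage median in the wild type was then 0.14 and 0.13, and 0.13 with ratios centred by length. In the knockout it was -0.04, -0.03 and -0.02. The additive test called 0 genes for genotype with library totals and 0 with no filter, and DESeq2 called 44, against 3. For stage it called 102 with library totals and 92 with no filter, and DESeq2 called 716, against 180. No member was among the calls under any of these settings. The members' E15 genotype median ran from 0.19 (centred by length) to 0.31 (pseudocount of 0.5 CPM) over the alternatives, and that at E18 from -0.04 to 0.04. Of 1216 member ratios over the alternatives, 1155 stayed within the counting interval, 61 moved outside it, and 0 of the ratios past 2-fold changed sign. Ndufs3 was the one gene recomputed with its copy: 0.27 and -0.11 for genotype, 0.66 and 0.28 for stage.

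No paired analysis was possible because each group holds 1 library, so that replicate numbers pair nothing. The additive test compares the genotypes within stages.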
